A study of Mus musculus with 15 samples.

Results

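Cells with at least 3 unique molecular identifiers (UMIs) of *Mesp1* were collected from the 12 control embryos of a single-cell RNA sequencing time course of mouse gastrulation. They are called Mesp1+ cells here and numbered 4839 of the 77481 control cells kept, and 93701 cells were kept in the whole series. The limits per cell were 10% of UMIs from mitochondrial genes, 50000 UMIs, and 200 to 7000 detected genes. The 69096 cells of the same embryos without a *Mesp1* UMI, called 0-Mesp1 cells, were the comparison, and 3546 cells with 1 or 2 *Mesp1* UMIs were left out of both sets. Cells were selected on their measured *Mesp1* count, so *Mesp1* values are given as a description.

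Every embryo is labelled C57/BL6 (C57BL/6J in the study's methods), was dissociated whole and is a library of its own. The 5 early controls were 3 embryos at E6.0, 1 at late E6.0 and 1 at E6.5. The 3 middle controls were 1 at late E6.5, 1 at E7.0 and 1 at early E7.5, and the 4 late controls were 2 at late E7.5 and 2 at E7.75. Each carries, at the *Hipp11* locus, the *Smarcd3*-F6::eGFP transgene, in which an enhancer of *Smarcd3* drives eGFP. Of the 12 controls, 10 also carry *Rosa26R* Ai14, a fluorescent reporter that is switched on for good by Cre from a knock-in at *Mesp1*. Early E7.5 and late E7.5 replicate 1 were made without Ai14. A control has at least 1 intact *Mesp1* allele, and the labels do not give the number of Cre alleles per embryo, so *Mesp1* levels were not split by it. The study's methods name a supplementary figure for this, and no allele count per embryo was taken from it. In the 3 *Mesp1* KO embryos of the series, 0 of 16220 kept cells reached 3 *Mesp1* UMIs and 6 cells held 1.

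*Mesp1* encodes a basic helix-loop-helix transcription factor that is switched on briefly as epiblast cells pass through the primitive streak and leave it as mesoderm. Its neighbour *Mesp2* encodes a close relative known for its part in somite formation. Cells that leave the streak lose epithelial adhesion through Snail factors, respond to Nodal, FGF and Wnt signals, and spread to the heart, cranial, lateral plate, extra-embryonic and paraxial mesoderm. Expression of *Mesp1* in the streak ends early, and it returns, with *Mesp2*, in the presomitic mesoderm before somites form.

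*Mesp1* lies on chromosome 7 of mm10 from 79792241 to 79793788 on the minus strand, and *Mesp2* from 79810727 to 79813439 on the plus strand (GENCODE M21). The start sites point away from each other, 16.9 kb apart. *Lefty2*, which encodes a secreted inhibitor of Nodal, lies on chromosome 1 from 180893108 to 180899103, and *Snai1*, which encodes a repressor of E-cadherin, on chromosome 2 from 167538195 to 167542814. Both *Mesp* genes are shown with the letters in front of their starts, because their products bind E-boxes (CANNTG) and both genes are high in the cells described here. The 250 bases before the RefSeq start of *Mesp2* (GRCm38.p6, chr7:79810477-79810726, plus strand) hold 1 E-box, in capitals.

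Mesp2: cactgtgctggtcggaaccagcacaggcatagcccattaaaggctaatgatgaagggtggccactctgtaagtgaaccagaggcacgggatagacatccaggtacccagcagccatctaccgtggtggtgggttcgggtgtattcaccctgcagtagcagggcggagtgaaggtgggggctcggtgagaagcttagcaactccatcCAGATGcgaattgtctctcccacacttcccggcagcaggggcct

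The RefSeq start of *Mesp1* lies inside the first exon of the GENCODE model, so only 2 short windows around its E-boxes are shown, 180 and 126 bases before the RefSeq start (chr7:79793755-79793780 and chr7:79793701-79793726, minus strand). Both fall within that first exon, in the 5′ UTR of the GENCODE model.

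Mesp1 distal E-box: atggttctttCAACTGgcagtcctgg
Mesp1 proximal E-box: aaatatggtcCAGGTGgagcagactg

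Searched on both strands, an E-box stands in the 250 bases before the start of 66.2% of 32851 promoters, the E-box CAAATG in 11.99% and TCACACCT, the letters of a T-box site bound by factors such as T and Eomes, in 1.12%. CAAATG is itself an E-box, so those counts overlap. In the 50 bases after the start, *Mesp1* holds TCACACCT at position 6 and *Mesp2* holds CAAATG at position 39. Over these longer windows the shares were 72.3%, 13.7% and 1.28%. These matches are a description of the letters.

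In the early embryos, Mesp1+ cells made up 17.2%, 19.4% and 18.8% of the cells at E6.0, 18.8% at late E6.0 and 24.2% at E6.5. The middle embryos held 18.8% at late E6.5, 19.9% at E7.0 and 9.40% at early E7.5. In the late embryos the share was 11.7% and 0.467% at late E7.5, and 0.0806% and 3.29% at E7.75. The medians of early, middle and late embryos were 18.8%, 18.8% and 1.88%, and the late embryos other than late E7.5 replicate 1 lay below every younger embryo. With a limit of 2 *Mesp1* UMIs the share was 18.8% to 26.3% in early embryos, and 14.9%, 1.05%, 0.262% and 5.04% in the late ones. With a limit of 5 it was 15.9% to 20.9% early, and 8.13%, 0.135%, 0.00672% and 1.44% late. Exact 95% Clopper-Pearson intervals ran from 15.4% to 19.2% in the first E6.0 embryo and from 0.0417% to 0.141% in E7.75 replicate 1, and they cover counting error only. The 2 late E7.5 embryos, which come from experiments 7 and 4, had intervals of 10.9% to 12.4% and 0.382% to 0.565%.

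**Figure D1:**
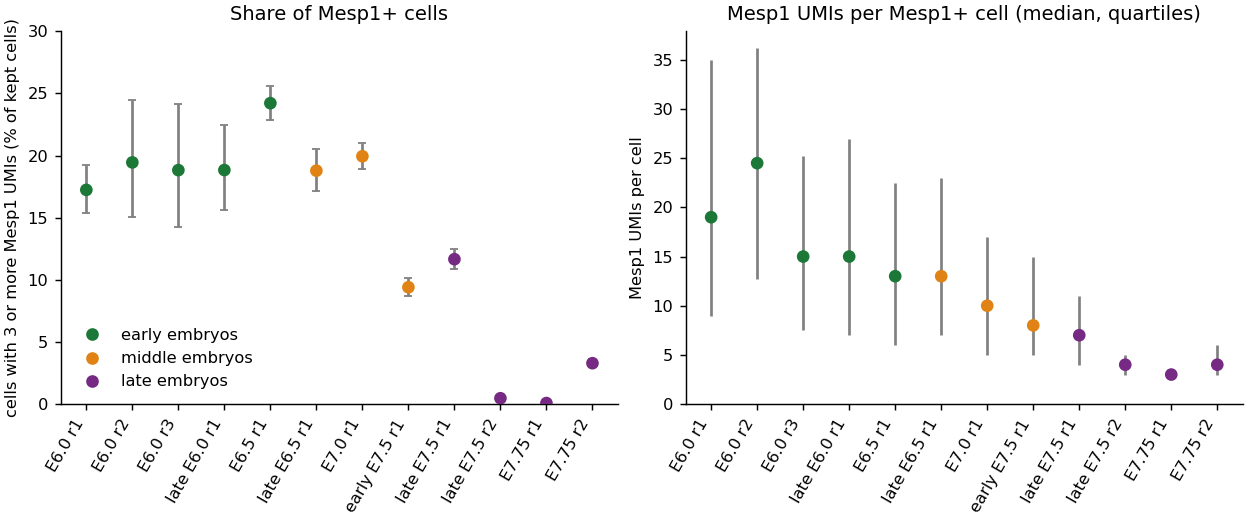
Left, share of kept cells with at least 3 *Mesp1* UMIs in each control embryo, in percent, with exact 95% intervals; right, median and quartiles of the *Mesp1* UMIs in those cells. Early embryos lie between 17.2% and 24.2% and late ones between 0.0806% and 11.7%, and the median UMI count falls from 13 or more to 7 or fewer.

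The *Mesp1* count within the cells also differed with age, before any allowance for depth. Median *Mesp1* counts per Mesp1+ cell were 19, 24.5 and 15 UMIs at E6.0, 15 at late E6.0 and 13 at E6.5. They were 13 UMIs at late E6.5, 10 at E7.0, 8 at early E7.5, 7 and 4 at late E7.5 and 3 and 4 at E7.75. The share of Mesp1+ cells with 6 or more *Mesp1* UMIs was 81.0% to 94.6% in early, 68.1% to 82.5% in middle and 0% to 59.3% in late embryos. Almost all *Mesp1* UMIs of the early embryos (97.8% to 99.7%) sat in Mesp1+ cells, against 40.9% in late E7.5 replicate 2 and 14.2% in E7.75 replicate 1. The selected cells are thus a small upper part of a weak signal in those late libraries.

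Depth bears on a rule that counts UMIs. Median UMIs per Mesp1+ cell were between 21760 and 42328 in 11 embryos and 5689 in E7.75 replicate 1, whose 12 Mesp1+ cells together hold 71465 UMIs. The 0-Mesp1 cells were shallower, with medians between 13578 and 34277 UMIs in the same 11 embryos and 3921 in E7.75 replicate 1. After each cell had been thinned to 3000 UMIs, at least 1 *Mesp1* UMI was seen in 14.6% to 22.0% of early, 8.52% to 17.4% of middle and 0.988% to 10.9% of late cells. The mean per Mesp1+ cell was then 1.56 to 3.22 UMIs in early, 1.39 to 1.85 in middle and 0.740 to 1.67 in late embryos. The value of 1.67 is that of E7.75 replicate 1, which had the lowest median before thinning and now lay within the early range. Its cells had to hold 3 *Mesp1* UMIs at a median depth of 5689, so the rule itself keeps this value from being low. It is not read as a level. The limits per cell on mitochondrial share, UMIs and genes together removed 62.8% of the barcodes with 3 or more *Mesp1* UMIs in E6.0 replicate 3. They removed 48.7% at late E6.0 and 24.3% in E6.0 replicate 2. In the other 9 embryos they removed 0% to 13.4%. Without the upper limits the early median share was 24.1%. Cells marked as likely doublets made up 0% to 4.86% of Mesp1+ cells in early, 3.68% to 5.63% in middle and 7.73% to 14.4% in late embryos, and 0% to 18.5% of 0-Mesp1 cells. The number marked was set by the barcode count of each library, so these shares follow library size and do not compare stages. Late E7.5 replicates 1 and 2 had 7.73% and 14.4% of Mesp1+ against 5.18% and 18.5% of 0-Mesp1 cells. The E7.75 embryos had 8.33% and 8.39% against 11.8% and 11.3%. Over the control libraries, 3185 of 74216 barcodes (4.29%) occurred in more than 1 library, and 28 Mesp1+ cells shared their barcode with a Mesp1+ cell of another library.

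The label of nascent mesoderm was checked against its other markers, *Mesp2*, *Snai1* and *Lefty2*. *Mesp2* stood at 89.0, 46.3 and 33.2 counts per 1000000 UMIs (CPM) in the Mesp1+ cells at E6.0, 41.3 at late E6.0, 82.0 at E6.5, 69.7 at late E6.5, 62.4 at E7.0 and 13.8 at early E7.5. Late embryos gave 19.4 and 96.6 CPM at late E7.5 and 364 and 40.9 CPM at E7.75. The 0-Mesp1 cells held 0.0810 to 0.985 CPM, so no embryo overlapped. *Snai1* followed the same pattern, at 459, 327, 283, 231 and 260 CPM in the early embryos, 213, 244 and 205 CPM in the middle and 150, 142, 69.96 and 163 CPM in the late ones, against 13.2 to 64.97 CPM in 0-Mesp1 cells.

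*Lefty2* behaved differently. It reached 225, 140, 169, 121 and 242 CPM in Mesp1+ cells of the early embryos, 235 CPM at late E6.5 and 341 CPM at E7.0. At early E7.5 it was 6.73 CPM, and in the late embryos it was 33.9, 1.89, 0 and 0 CPM. The 0-Mesp1 cells held 0.164 to 17.6 CPM, and in late E7.5 replicate 2 and both E7.75 embryos they were above the Mesp1+ cells. In E7.75 replicate 1, 1 UMI is 13.99 CPM and 3 UMIs are 41.98 CPM, so its 0 cannot show a lower level. All 3 markers were higher in Mesp1+ cells in 9 of 12 embryos. The comparison is with all 0-Mesp1 cells, and the markers were chosen with earlier results of these data known. *Mesp1* and *Mesp2* are also on in presomitic mesoderm, so the check cannot tell it from nascent mesoderm. At early E7.5 and late E7.5 replicate 1, both among the 9, Mesp1+ cells held 79 and 82 *Eomes* UMIs and 6678 and 3845 of *Msgn1*. At E7.0 they held 1771 and 2450. By *Lefty2* the label does not hold for late E7.5 replicate 2 and E7.75 replicate 2, and E7.75 replicate 1 is too shallow to tell. The cells of these last 3 embryos are described by their *Mesp1* count alone.

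In the early embryos, 85 cells with exactly 3 *Mesp1* UMIs held 19.2 CPM of *Mesp2* and 113 cells with exactly 2 held 26.0 CPM, where all Mesp1+ cells held 75.7 CPM and 0-Mesp1 cells 0.522 CPM. *Snai1* stood at 132 and 110 CPM with exactly 3 and exactly 2, and *Lefty2* at 71.3 and 78.4 CPM. In the middle embryos *Mesp2* stood at 17.8 and 11.7 CPM, *Snai1* at 147 and 133 CPM and *Lefty2* at 113 and 78.2 CPM. In the late ones *Mesp2* stood at 16.8 and 12.3 CPM, *Snai1* at 118 and 112 CPM and *Lefty2* at 18.9 and 10.02 CPM. Cells with 1 or 2 *Mesp1* UMIs entered neither set.

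**Figure D2:**
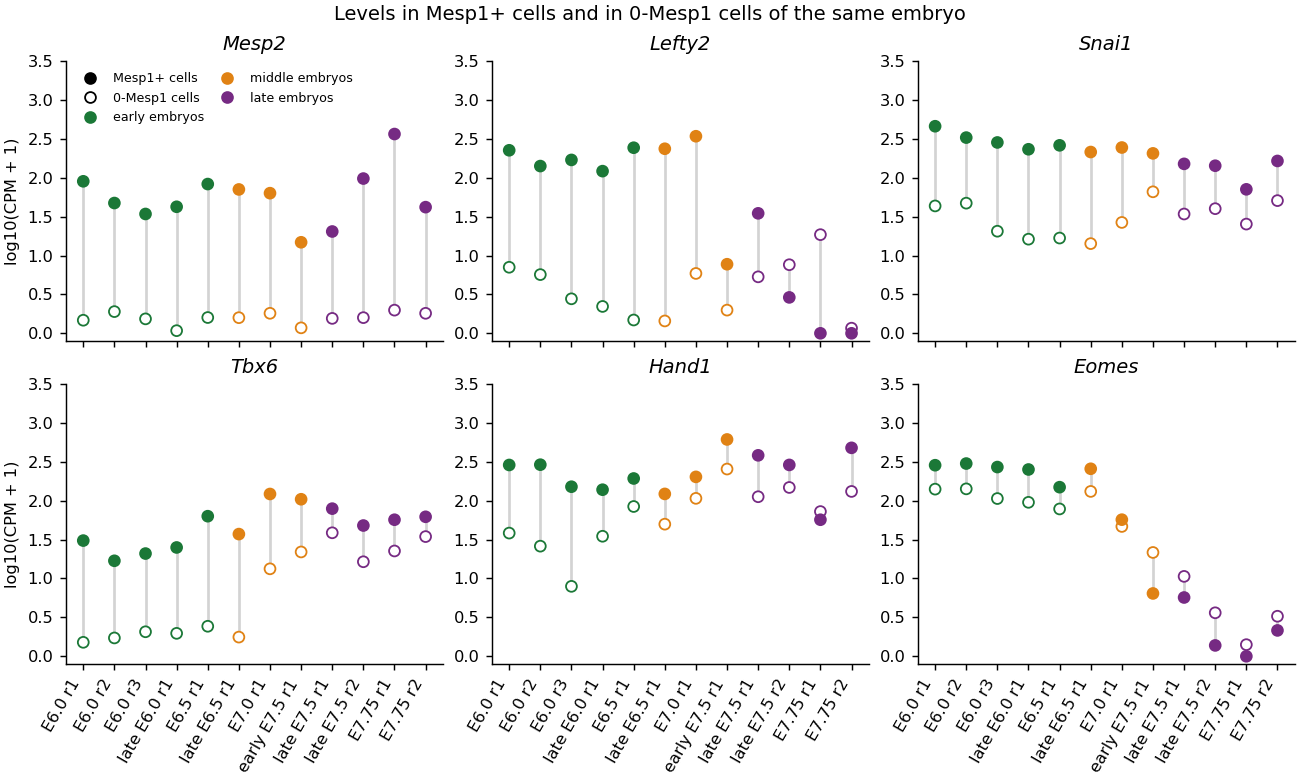
Levels of *Mesp2*, *Lefty2*, *Snai1*, *Tbx6*, *Hand1* and *Eomes*, as log10(CPM + 1), in Mesp1+ cells (filled) and 0-Mesp1 cells (open) of each control embryo, coloured by stage. *Mesp2* and *Snai1* are higher in Mesp1+ cells of every embryo, *Lefty2* in 9 of 12, and *Eomes* falls with age in both sets of cells.

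The first comparison asked how Mesp1+ cells differ from all 0-Mesp1 cells of the same embryo. Counts were summed per embryo and cell set, and all 12 embryos entered a fit with the embryo as a block. Of 13060 genes tested, 6991 had an adjusted p below 0.05, 3242 higher and 3749 lower in Mesp1+ cells, a background of 53.5% called (24.8% higher, 28.7% lower). Embryos are the replicates, each a separate animal, and they span the ages given above. The 0-Mesp1 cells hold every other cell type of the embryo, so this comparison cannot separate Mesp1+ cells from other mesoderm. Differences are log2 fold changes ± their standard error.

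*Mesp2* was higher by 6.60 ± 0.24 (adjusted p = 7.41e-11, higher in 12 of 12 embryos), *Lefty2* by 4.86 ± 0.76 (5.81e-05, 9 of 12) and *Snai1* by 2.93 ± 0.27 (1.82e-07, 12 of 12). Paraxial and presomitic mesoderm genes rose as a whole list, 13 of 13 tested, with a median of 3.29 against 0.01 over all genes. *Ripply2*, a repressor that acts with Mesp2 in somites, rose by 5.13 ± 0.26, and the cell adhesion genes *Pcdh8* and *Pcdh19* by 4.04 ± 0.35 and 3.91 ± 0.36. The Notch ligands *Dll1* and *Dll3* rose by 3.69 ± 0.45 and 3.26 ± 0.33, and *Msgn1* and *Tbx6*, transcription factors of the presomitic mesoderm, by 3.63 ± 0.52 and 2.98 ± 0.48. *Foxc1* rose by 3.29 ± 0.53 and *Lfng*, which modifies Notch, by 2.76 ± 0.27. In the early embryos, *Tbx6* was at 15.9 to 62.3 CPM in Mesp1+ cells against 0.512 to 1.43 CPM in 0-Mesp1 cells. *Dll1* ran from 10.9 to 64.0 CPM in the early Mesp1+ cells. Other genes of the list were near 0 in the youngest embryos. The Mesp1+ cells of E6.0 replicates 1 to 3 and late E6.0 held 1, 0, 2 and 2 UMIs of *Ripply2*. They held 0, 1, 0 and 3 UMIs of *Hes7*, and at E6.5 the counts were 242 and 878. Among the 10 genes with the largest rise in all 12 embryos were also *Chst7* (3.07 ± 0.33), a carbohydrate sulfotransferase, and *Rasgrp3* (2.99 ± 0.27), a Ras activator.

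Streak genes rose in 12 of 15 and fell in 2. *T*, the Brachyury factor of the streak, rose by 2.06 ± 0.25, *Mixl1* by 3.28 ± 0.20, *Lhx1* by 2.30 ± 0.15, *Evx1* by 2.42 ± 0.16 and the Nodal co-receptor *Tdgf1* by 2.14 ± 0.27. *Eomes* differed by 0.53 ± 0.28 and did not pass (adjusted p = 0.123). *Nodal* fell by 1.38 ± 0.20 on the log2 scale and *Foxa2*, a factor of the anterior streak and endoderm, by 4.16 ± 0.26. Epiblast genes rose in 0 of 12 and fell in 9, led by *Utf1* at −4.62 ± 0.22 and *Sox2* at −2.99 ± 0.17. *Utf1* stood at 9.08 to 19.5 CPM in early Mesp1+ cells and at 461 to 1013 CPM in 0-Mesp1 cells. *Pou5f1* differed by −0.01 ± 0.08 (adjusted p = 0.967) and *Nanog* by −0.53 ± 0.22 (0.055), and neither passed.

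Genes of epithelial to mesenchymal transition and migration rose in 11 of 20 and fell in 5. *Cdh2*, N-cadherin, rose by 1.997 ± 0.14, and *Cdh1*, E-cadherin, fell by 2.23 ± 0.11 on the log2 scale, with *Epcam* at −1.91 ± 0.07. *Cdh2* lay between 79.3 and 106 CPM in early Mesp1+ cells and between 11.4 and 30.7 CPM in 0-Mesp1 cells, while *Cdh1* lay between 5.44 and 20.9 CPM and between 62.8 and 81.1 CPM. The growth factor receptor *Pdgfra* rose by 2.13 ± 0.20, the matrix gene *Fn1* by 1.95 ± 0.21, *Cdh11* by 2.34 ± 0.35, *Twist1* by 1.74 ± 0.30, *Cxcr4* by 1.66 ± 0.21 and *Zeb2* by 1.39 ± 0.22. *Snai2* fell, by 1.24 ± 0.25 on the log2 scale. The medians were 1.25 for the streak, −1.61 for the epiblast and 0.79 for the transition list.

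Among genes of later mesoderm, the lateral plate and extra-embryonic list rose in 8 of 11 and fell in 2, with *Hand1* at 1.84 ± 0.27, *Foxf1* at 2.27 ± 0.23, *Wnt5a* at 2.62 ± 0.16 and *Bmp4*, a ligand made by extra-embryonic tissue as well, at 0.69 ± 0.27 (adjusted p = 0.0434). *Bmp4* lost its call without any 1 of 8 embryos (all but E6.0 replicates 1 and 2, late E6.5 and E7.75 replicate 1) and stood at 0.04 without the Mesp1+ cells that held markers of other cells. Cardiac genes rose in 5 of 11, with *Isl1* at 2.57 ± 0.34, *Hand2* at 1.36 ± 0.26, *Gata6* at 1.09 ± 0.24 and *Gata4* at 0.71 ± 0.16. *Myl7*, an atrial myosin light chain, was at 1.58 ± 0.77 and did not pass (adjusted p = 0.0938), and *Nkx2-5* was at −0.87 ± 0.58 (0.222). Endothelial and blood genes rose in 2 of 9, *Kdr* (1.602 ± 0.40) and *Etv2* (0.99 ± 0.22), both early markers of the lineage, and fell in 7, with the blood factors *Gata1* at −3.28 ± 0.26, *Runx1* at −2.64 ± 0.14 and *Tal1* at −1.73 ± 0.25. The medians of the 3 lists were 0.89, 1.09 and −1.73.

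Signalling lists moved less evenly. In the Nodal list 6 of 14 rose and 4 fell. *Lefty2* and *Tdgf1* rose with *Foxh1*, a nuclear partner of Smad2 (1.03 ± 0.07), while *Nodal* and its convertases *Furin* (−0.89 ± 0.14) and *Pcsk6* (−1.41 ± 0.24) fell. Of the FGF list 10 of 17 rose and 4 fell. The ligands *Fgf4*, *Fgf3*, *Fgf10* and *Fgf8* rose by 2.36 ± 0.33, 2.02 ± 0.35, 1.84 ± 0.15 and 1.25 ± 0.18, *Fgfr1* rose by 0.55 ± 0.09, and *Fgf5* and *Fgfr2* fell by 1.28 ± 0.16 and 1.02 ± 0.12 on the log2 scale. Of the BMP list 7 of 16 rose and 2 fell, with the signal transducer *Smad1* at 1.09 ± 0.10, *Bmp2* at −0.74 ± 0.09 and the target *Id2* at −2.01 ± 0.31. Of the Notch list 8 of 14 rose and 0 fell, with the receptor *Notch1* at 1.89 ± 0.17 and the target *Hes7* at 1.63 ± 0.38. The medians of the Nodal, FGF, BMP and Notch lists were 0.15, 0.55, 0.16 and 0.65.

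Markers of most other cell types were lower in Mesp1+ cells. The summed level of 9 visceral endoderm genes was 27.99 to 1218 CPM in Mesp1+ cells and 1316 to 7774 CPM in 0-Mesp1 cells, and it was lower in 12 of 12 embryos. Definitive endoderm (28.1 to 76.1 against 81.9 to 1005 CPM), node and notochord (0 to 12.9 against 9.91 to 99.7 CPM) and neural and surface ectoderm lists (98.0 to 414 against 541 to 1232 CPM) were lower in 12 of 12 as well. The extra-embryonic ectoderm list was lower in 11 of 12 (11.5 to 402 against 120 to 810 CPM), and in the late embryos its ranges overlapped, at 112 to 336 and 120 to 363 CPM. In the late Mesp1+ cells *Cdx2*, which posterior mesoderm expresses as well, made up most of that sum, at 253, 244, 112 and 323 CPM, with *Elf5* at 0 to 1.89 CPM. Markers of primordial germ cells were lower in 5 of 12 (24.8 to 97.3 against 37.2 to 97.7 CPM). The extra-embryonic ectoderm gene *Elf5* showed the largest fall among the genes lower in all 12 embryos, −5.70 ± 0.29, followed by claudins and visceral endoderm genes such as *Cldn3* (−5.24 ± 0.30), *Apoc2* (−5.23 ± 0.52), *Apoa1* (−5.09 ± 0.53) and *Ttr* (−4.95 ± 0.55). The others of those 10 were *Spink3* (−5.23 ± 0.61), *Srgn* (−5.13 ± 0.31), *Cldn4* (−5.04 ± 0.26), *Cubn* (−4.92 ± 0.38) and *Pga5* (−4.90 ± 0.33). Between 9.69% and 64.2% of the Mesp1+ cells in 11 embryos, and 0 of the 12 in E7.75 replicate 1, still held 10 or more UMIs of visceral endoderm, extra-embryonic ectoderm or blood markers, against 3.27% to 64.1% of the 0-Mesp1 cells, and the share was higher in Mesp1+ cells at early E7.5 (64.2% against 64.1%), in late E7.5 replicate 2 (53.8% against 50.1%) and in E7.75 replicate 2 (54.9% against 45.8%). *Cdx2* UMIs count toward these 10, and *Cdx2* was 379 CPM in the Mesp1+ cells at early E7.5. *Apoe*, of the visceral endoderm list, counts as well. Mesp1+ cells held 207 *Apoe* and 1 *Ttr* UMIs in E6.0 replicate 2 and 5342 and 855 at E7.0. In late E7.5 replicate 2 alone *Ttr* was higher, at 784 against 463. The part of free RNA and of doublets was not tested. *Cdx2* differed by 0.36 ± 0.24 and did not pass (adjusted p = 0.227).

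A second comparison set Mesp1+ cells against 0-Mesp1 streak cells, that is cells with at least 3 *T* UMIs and no *Mesp1* UMI, in the 8 early and middle embryos (1702 cells over all 8). It asked how Mesp1+ cells, whatever their *T* count, differ from cells chosen for *T*. The *T* limit applied to the comparison cells alone, so genes that vary with *T* are compared under that choice. *T* also marks the node and notochord, and the set held node and endoderm genes at the levels given here, so the name streak cells stands for the *T* rule alone. Since *T* chose the comparison cells, it is not compared. Of 10819 genes, 3359 passed, which is 31% (14.4% higher, 16.6% lower). Node and endoderm genes were lower in Mesp1+ cells: *Foxj1*, a factor of ciliated node cells, was at −6.52 ± 0.17, *Foxa2* at −5.22 ± 0.24, *Calca* at −4.60 ± 0.25, *Trh* at −3.57 ± 0.21 and *Sox17* at −3.51 ± 0.36. *Foxj1* stood at 9.53 to 278 CPM in the streak cells and at 0 to 3.64 CPM in the Mesp1+ cells of the same 8 embryos. The definitive endoderm list fell in 6 of 6, and the epiblast list fell in 11 of 12 and rose in 0, *Pou5f1* among them at −0.52 ± 0.09. *Lgr5* (−3.36 ± 0.38), *Ccno* (−3.30 ± 0.41), *Tal1* (−3.08 ± 0.32), *Ndrg1* (−3.01 ± 0.24) and *1700009P17Rik* (−3.65 ± 0.32) completed the 10 largest falls. Markers of visceral endoderm were lower in 1 of 7.

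Streak genes split in this comparison, with 6 of 14 higher and 3 lower. *Mixl1*, *Evx1*, *Tdgf1* and *Lhx1* were higher by 1.05 ± 0.22, 0.93 ± 0.12, 0.72 ± 0.12 and 0.64 ± 0.21. *Nodal* was at −2.14 ± 0.16 and *Gsc*, a factor of the anterior streak, at −0.98 ± 0.34 (adjusted p = 0.0411). *Gsc* lost its call without any 1 of 6 embryos (E6.0 replicates 1 and 3, late E6.0, E6.5, late E6.5 or E7.0), *Tbx6* without E6.0 replicate 1, E6.5 or late E6.5, and *Lhx1* without late E6.0 or late E6.5. *Lhx1* also lost it in DESeq2 and without upper limits on UMIs and genes, and *Pou5f1* against streak cells with at least 1 *T* UMI. *Eomes* (−0.21 ± 0.18, adjusted p = 0.411) and *Fgf8* (−0.24 ± 0.11, 0.109) did not pass. The tested genes of the mesoderm lists were higher without a member lower: paraxial 8 of 10, lateral plate and extra-embryonic 8 of 10 and cardiac 5 of 5. Genes with few UMIs in both sets, most of the cardiac list among them, were not tested. A gene can pass that filter through Mesp1+ cells alone, so these tallies do not stand for the whole lists. *Mesp2* was higher by 5.34 ± 0.14, *Lefty2* by 4.58 ± 0.49, *Foxf1* by 3.23 ± 0.29, *Isl1* by 3.23 ± 0.33, *Wnt2* by 3.08 ± 0.24, *Msgn1* by 2.89 ± 0.62, *Pdgfra* by 2.86 ± 0.31, *Myl7* by 2.73 ± 0.32, *Hand1* by 2.52 ± 0.34, *Snai1* by 2.51 ± 0.18 and *Gata4* by 2.35 ± 0.10. *Pdgfra* stood at 24.3 to 42.2 CPM in Mesp1+ cells and 1.32 to 16.2 CPM in streak cells, and *Gata4* at 31.4 to 80.4 and 5.06 to 15.8 CPM, with no overlap between the sets. *Pcdh19*, *Arl4d* and *Rasgrp3* were higher by 3.31 ± 0.53, 2.79 ± 0.30 and 2.66 ± 0.23. The medians of the streak, paraxial, lateral plate and cardiac lists were −0.19, 2.49, 1.77 and 2.35, against 0.02 over all genes. *Tbx6* was higher by 1.53 ± 0.48 (adjusted p = 0.0257, 7 of 8 embryos).

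Another comparison used the lineage reporter. Ai14 stays on after *Mesp1* has gone, so 0-Mesp1 cells with an Ai14 UMI include cells past their *Mesp1* phase (8770 cells in 10 embryos), although Ai14 UMIs also occur in cells outside the lineage. Of 10347 genes, 2219 passed, which is 21.4% (8.37% higher, 13.1% lower). Mesp1+ cells were higher in 11 of 12 paraxial genes and lower in 0. *Pcdh8*, *Dll1*, *Pcdh19*, *Dll3*, *Tbx6* and *Lfng* were among the 10 with the largest rise in all 10 embryos, at 4.57 ± 0.48, 4.56 ± 0.40, 3.74 ± 0.35, 3.59 ± 0.28, 3.49 ± 0.29 and 3.20 ± 0.29. *Dll1* stood at 0 to 13.2 CPM in the Ai14-positive cells and 10.9 to 252 CPM in the Mesp1+ cells. Streak genes were higher in 13 of 14 and lower in 1, now with *Eomes* (1.12 ± 0.17) beside *T* (2.22 ± 0.21), *Mixl1* (3.30 ± 0.28) and *Lhx1* (2.51 ± 0.25). The long non-coding RNA *5730457N03Rik* and *Chst7* were higher by 2.69 ± 0.18 and 2.57 ± 0.28.

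Of the lateral plate and extra-embryonic list 1 of 10 was higher and 2 lower, with *Hand1* at 0.41 ± 0.44 (adjusted p = 0.588), *Foxf1* at 0.21 ± 0.30 (0.71) and *Bmp4* at −0.61 ± 0.19 (0.0327). The cardiac list had 2 of 8 higher, *Isl1* (1.29 ± 0.34) and *Gata4* (1.0001 ± 0.23), and 2 lower, *Smarcd3* (−0.67 ± 0.18) and *Myl4* (−2.15 ± 0.48). *Bmp4* lost its call without any 1 of 6 embryos (E6.0 replicates 1 and 2, late E6.0, E6.5, late E6.5 or E7.0), *Smarcd3* without E6.5 or E7.75 replicate 2 and *Isl1* without E7.0. Under other settings *Gata4* and *Rhox5* lost theirs against cells with at least 2 Ai14 UMIs, *Myl4* and *Smarcd3* in DESeq2, *Smarcd3* without upper limits on UMIs and genes and *Bmp4* with cells matched on UMIs. Endothelial and blood genes were lower in 6 of 7, with *Fli1* at −3.92 ± 0.23, *Tal1* at −3.78 ± 0.24 and *Lmo2* at −2.47 ± 0.24. *Tal1* stood at 19.1 to 38.05 CPM in the Ai14-positive and at 0 to 4.23 CPM in the Mesp1+ cells, with no overlap. Endoderm genes, *Hapln1* and other genes made up the rest of the largest falls, with *Hapln1* at −4.23 ± 0.35, *Trh* at −3.38 ± 0.30, *Sox17* at −3.26 ± 0.34, and *Crb3*, *1190007F08Rik*, *Rhox5*, *Ddah1* and *Nid1* from −3.22 to −2.83. *Utf1* (−4.31 ± 0.39) was also lower, from 1.33 CPM to 1081 CPM in the Ai14-positive cells, which therefore hold epiblast-type cells as well. *Mesp2*, *Lefty2* and *Snai1* were higher by 6.73 ± 0.32, 4.08 ± 0.82 and 2.33 ± 0.23. The medians of the paraxial, streak and lateral plate lists were 3.35, 1.70 and 0.31, against 0.01 over all genes.

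**Figure D3:**
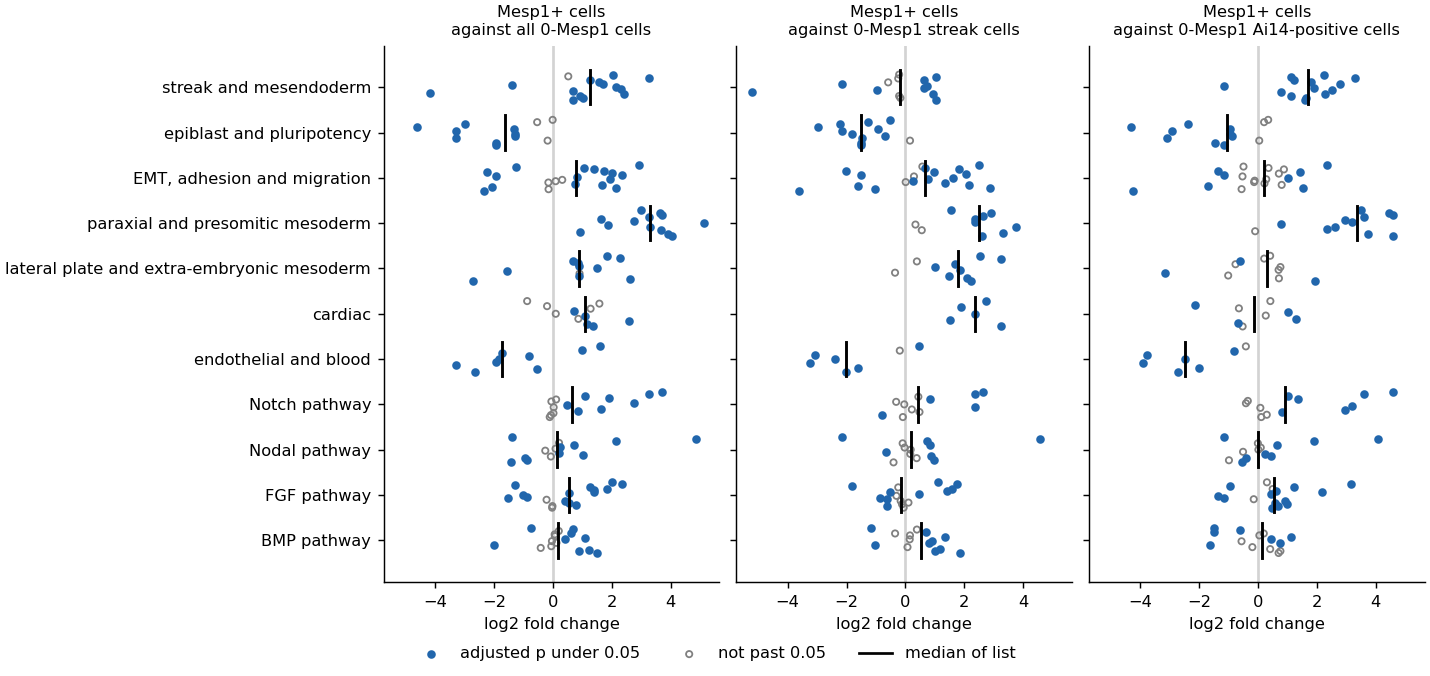
Log2 fold changes of the genes of 11 lists in Mesp1+ cells against all 0-Mesp1 cells, 0-Mesp1 streak cells and 0-Mesp1 Ai14-positive cells; filled points have an adjusted p below 0.05 and bars are list medians. Paraxial genes lie at or above 0 in the first 2 panels and all but 1 do in the right one. The cardiac genes tested have a median of 2.35 against streak cells and of −0.13 against Ai14-positive cells. The genes tested and the embryos fitted differ between the panels, so the medians are not compared with each other.

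The Mesp1+ cells were also split by *Mesp1* count, the value that selected them. This describes how other genes go with that count and does not test whether the cells are uniform. Cells with 6 or more *Mesp1* UMIs were compared with cells with 3 to 5 in the 9 embryos that had at least 10 of each. Of 10751 genes 190 passed, 95 in each direction, a background of 1.77% (0.884% each way). *Mesp2* was higher by 1.61 ± 0.18 (adjusted p = 0.000186) and *Snai1* by 0.68 ± 0.07 (7.54e-05), both in 9 of 9 embryos. *Mesp2* stood at 96.0 and 27.7 CPM in the 2 sets in E6.0 replicate 1, at 91.2 and 25.5 CPM at E6.5 and at 16.3 and 7.51 CPM at early E7.5. Of the paraxial list 6 of 13 were higher and 0 lower, among them *Pcdh8* (1.01 ± 0.18), *Ripply2* (0.88 ± 0.22), *Lfng* (0.85 ± 0.18), *Dll1* (0.81 ± 0.15), *Pcdh19* (0.67 ± 0.12) and *Dll3* (0.53 ± 0.12). Epiblast genes were higher in 0 of 12 and lower in 6, with *Utf1* at −1.21 ± 0.18, *Sox2* at −1.15 ± 0.26 and *Nanog* at −0.68 ± 0.10. *Tal1* (−2.29 ± 0.23) and *Etv2* (−0.93 ± 0.16) were lower too. Among genes of higher level, *Wnt5a*, *Itpr1*, *Nin*, *Pcolce2* and *Adam19* were higher by 0.58, 0.54, 0.53, 0.52 and 0.50. *Igf2*, *Bmp2*, *5730469M10Rik*, *Crabp2*, *Rbm38*, *Gyg*, *Ppic*, *Rab3ip* and *Bcat2* were lower, at −0.93, −0.71, −0.62, −0.53, −0.53, −0.42, −0.37, −0.32 and −0.28. The paraxial and epiblast medians were 0.56 and −0.44, against 0.00 over all genes.

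Of the streak list 4 of 14 were higher and 1 lower. *T* (0.14 ± 0.08, adjusted p = 0.506), *Eomes* (0.06 ± 0.08, 0.873), *Tbx6* (0.19 ± 0.12, 0.567) and *Hand1* (−0.16 ± 0.17, 0.815) did not pass, while *Tdgf1* was higher by 0.51 ± 0.09. *Lefty2* was at 0.57 ± 0.16 (adjusted p = 0.0758). A deeper cell reaches 6 *Mesp1* UMIs more easily, and with the cells matched on UMIs 88 genes passed in 8 embryos, 26 higher and 62 lower. *Dll3*, *Ripply2*, *Itpr1*, *Nin*, *Gyg*, *Rab3ip* and *Bcat2* then lost their calls, and DESeq2 lost those of *Ripply2*, *Sox2*, *Tdgf1* and *Utf1*. *Bcat2* and *Rab3ip* lost theirs without the Mesp1+ cells holding markers of other cells. The count also depended on single embryos, with 61 without E6.5, 56 without E7.0, 120 without early E7.5 and 360 without E7.75 replicate 2. *Ripply2* lost its call in 8 of 9 refits that left out an embryo, *Bcat2* in 7, *Dll3*, *Sox2* and *Nin* in 5, *Rab3ip* in 4 and *Gyg* and *Lfng* in 2, while *Mesp2*, *Snai1*, *Pcdh8*, *Pcdh19*, *Dll1*, *Utf1* and *Nanog* lost theirs in 0 of these refits.

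Shares of cells with a given gene were taken over cells with at least 3000 UMIs. This left out 5.41% to 34.1% of the 0-Mesp1 cells per embryo and at most 0.363% of the Mesp1+ cells. At least 1 *Eomes* UMI was found in 82.3% to 100% of the early Mesp1+ cells and 54.0% to 61.4% of the 0-Mesp1 cells of the same embryos. *Tbx6* was found in 39.3% to 61.1% of the early, 51% to 70.8% of the middle and 33.3% to 56.2% of the late Mesp1+ cells, against 1.16% to 3.33%, 1.604% to 9.52% and 6.26% to 16.3% of the 0-Mesp1 cells. *Hand1* was found in 47.9% to 75%, 41.5% to 83.8% and 16.7% to 81.2% of the Mesp1+ and in 6.11% to 23.1%, 21.2% to 41.4% and 14.98% to 29.0% of the 0-Mesp1 cells, with ranges that overlap in the late embryos. Cells thinned to 3000 UMIs gave 3.57% to 17.4% for *Tbx6*, 22.9% to 44.6% for *Hand1* and 32.7% to 55.4% for *Eomes* in the early Mesp1+ cells, against 0% to 1.03%, 1.67% to 11.7% and 16.6% to 27.7% in 0-Mesp1 cells.

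The Ai14 transcript was more frequent in Mesp1+ cells. In the 10 embryos with the reporter, it was detected in 56.6%, 75%, 62.5%, 54% and 55.1% of the early Mesp1+ cells in order of age, 43% at late E6.5, 59.2% at E7.0, 26.0% in late E7.5 replicate 2 and 0% and 51.2% at E7.75. The 0-Mesp1 cells of the same embryos had 12.9%, 10.5%, 8.42%, 10.7%, 10.7%, 6.77%, 11.8%, 19.8%, 4.68% and 22.1%. The mean difference was 36.4 percentage points ± 21.2 (SD, n = 10), with Mesp1+ cells higher in 9 of 10 embryos (two-sided exact permutation of signs over embryos, p = 0.00391, smallest possible 0.00195). The exception was E7.75 replicate 1 with its 12 cells of 5689 median UMIs. A count of 0 of 12 allows a share of up to 25% of cells with an Ai14 UMI (3 counts of 12, for counting error only), which is no limit on cells that express it. Thinned to 3000 UMIs, the difference was 10.5 points (9 of 10, exact permutation p = 0.00391). In the 2 embryos without Ai14, 2.90% and 1.77% of Mesp1+ cells and 2.64% and 2.65% of 0-Mesp1 cells still held an Ai14 UMI, a background measured without the reporter.

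The *Smarcd3*-F6 eGFP transcript was found in 20.5% of Mesp1+ and 6.61% of 0-Mesp1 cells on average, a difference of 13.9 points ± 10.3 (SD, n = 12; higher in 11 of 12, exact permutation p = 0.000977). With cells thinned to 3000 UMIs, which lowers both shares, they were 2.34% and 1.25%. That difference of 1.09 points, with 8 of 12 higher, did not pass (exact permutation p = 0.0713).

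**Figure D4:**
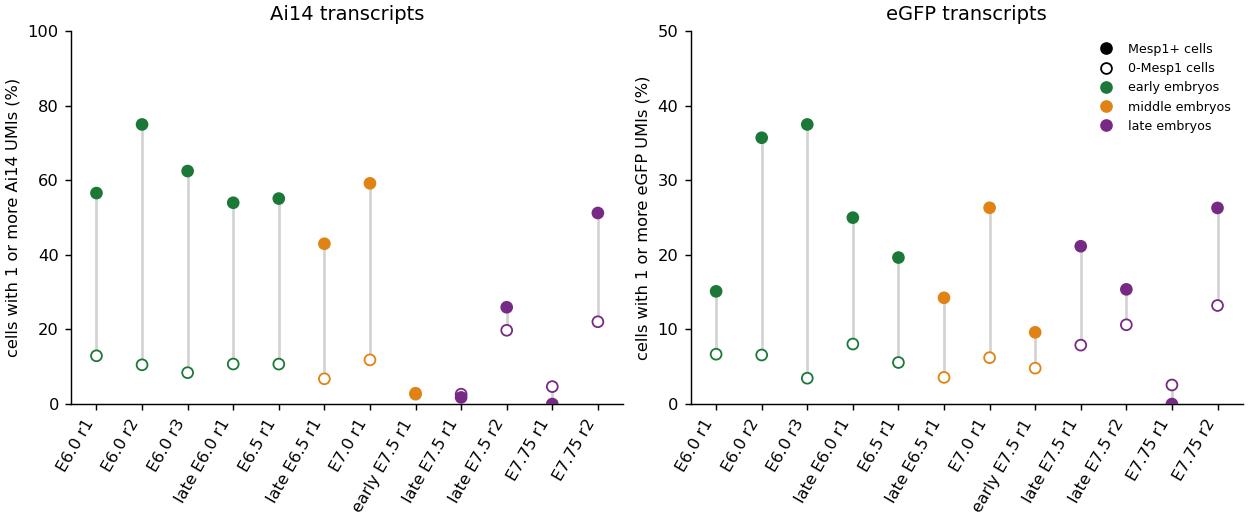
Share of cells with at least 1 UMI of the Ai14 and the eGFP transcript in Mesp1+ cells (filled) and 0-Mesp1 cells (open) of each control embryo, in percent. Ai14 is higher in Mesp1+ cells of 9 of the 10 embryos that carry it, and near 2% to 3% in both sets of the 2 embryos without it.

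Across ages, late Mesp1+ cells were compared with early ones over the 9 embryos of those stages, in a fit that also held the 3 middle embryos. Of 12409 genes, 986 passed, 577 higher and 409 lower late, which is 7.95% (4.65% and 3.3%). Streak genes were lower. *Tdgf1*, the Nodal co-receptor, was 1940, 1477, 1533, 1124 and 424 CPM in the early embryos, 889, 211 and 1.65 CPM in the middle and 3.78, 0, 0 and 0.177 CPM in the late ones (−9.56 ± 1.66, adjusted p = 0.0116). *Eomes* was 285, 300, 270, 251 and 148 CPM early, 257, 56.1 and 5.42 CPM in the middle and 4.70, 0.379, 0 and 1.15 CPM late (−6.64 ± 1.09, 0.0116). *Mixl1* followed with 719, 612, 280, 317 and 89.4 CPM early and 74.1, 29.2, 0 and 41.5 CPM late (−3.14 ± 0.58, 0.0126). Early and late embryos do not overlap for any of the 3 genes, and for *Tdgf1* and *Eomes* early E7.5 already lies at the late level. *Fgf5* (−6.18 ± 1.24), *Nanog* (−4.24 ± 0.77), *Wnt3* (−3.82 ± 0.62), *Lhx1* (−2.96 ± 0.62), *Kdr* (−2.85 ± 0.49) and *Snai1* (−1.16 ± 0.20) were lower too. Of the streak list 9 of 14 fell and 0 rose, and of the epiblast list 8 of 12 fell and 0 rose, with medians of −2.89 and −1.49 against 0.03 over all genes. Of the Nodal list 3 of 13 fell, *Nodal*, *Tdgf1* and *Foxh1*, and 0 rose, with a median of −0.01. *Bcl11a* (−4.11 ± 0.76), the processed pseudogene *Gm12366* (−3.85 ± 0.81) and *Socs2* (−3.31 ± 0.61) were among the 10 largest falls. *Pmepa1* (−5.07 ± 1.18) and the processed pseudogene *Gm6166* (−6.21 ± 1.33) were there too. *Gm6166* was 159, 237 and 141 CPM in E6.0 replicates 1 and 2 and at E6.5. It was 2.42 CPM or less in every other embryo, the other early ones included, with the same split in 0-Mesp1 cells.

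Of the paraxial list 7 of 14 rose in late Mesp1+ cells and 0 fell, with a median of 2.35. *Aldh1a2*, the main enzyme of retinoic acid synthesis, was at most 1.04 CPM in the early embryos, 0.944, 3.93 and 210 CPM in the middle and 132, 538, 756 and 445 CPM in the late ones (9.18 ± 1.496, adjusted p = 0.0116). *Meox1*, a homeobox gene of somites, was at most 0.522 CPM early and 6.70, 99.7, 280 and 79.7 CPM late (7.53 ± 1.45, 0.0137). *Ripply2* was at most 9.02 CPM early and 21.9, 104, 140 and 75.1 CPM late (4.39 ± 0.87, 0.0144). *Msgn1* rose from 1.81 to 25.9 CPM early to 220, 146, 0 and 294 CPM late, and the groups overlap because of the 0 in E7.75 replicate 1, where 1 UMI is 13.99 CPM (3.63 ± 0.81, 0.0206). *Osr1*, a factor of intermediate and lateral plate mesoderm, rose by 6.40 ± 1.05, and the Hox genes *Hoxd3*, *Hoxa5* and *Hoxb5* by 7.18 ± 1.22, 6.74 ± 1.29 and 6.73 ± 1.24. *Arg1*, an arginase, was at most 0.336 CPM early and 3.27, 145, 196 and 61.3 CPM late (8.26 ± 1.59). *Dll1* rose by 1.98 ± 0.55 (adjusted p = 0.0434), a call lost in 8 of 12 refits that left out an embryo (all but E6.5, late E6.5, early E7.5 and late E7.5 replicate 1), and *Cer1* by 2.52 ± 0.45. Of the Notch list 4 of 14 rose and 0 fell, with a median of 0.51.

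Several other genes described above did not pass. *T* was 416, 328, 119, 318 and 435 CPM early and 281, 85.3, 0 and 93.7 CPM late (−1.28 ± 0.51, adjusted p = 0.143). *Tbx6* ran from 15.9 to 62.3 CPM early, was 36.2, 121 and 103 CPM in the middle and ran from 47.0 to 78.1 CPM late (0.95 ± 0.40, 0.164). *Hand1* ran from 138 to 290 CPM early and from 56.0 to 478 CPM late (0.61 ± 0.46, 0.445). *Mesp2* (0.35 ± 0.71, 0.835) and *Lefty2* (−3.83 ± 1.22, 0.0715) did not pass either. Of 11 cardiac genes 2 rose, *Isl1* (1.97 ± 0.47) and *Hand2* (2.39 ± 0.38). *Isl1* lost its call in 5 of 12 refits, without E6.0 replicate 1 or 3, late E7.5 replicate 1 or 2 or E7.75 replicate 2, and *Hand2* without E7.75 replicate 2. *Gata4* fell by 1.46 ± 0.25 on the log2 scale.

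Genes near 0 in the early embryos need another scale. *Gm14226* had 0 UMIs in the early and 20, 142, 4 and 952 UMIs in the late Mesp1+ cells, 1118 in all. With the floor set at 3 counts over the early group this is at least 473-fold higher, and 384-fold at the lower exact 95% counting limit. Without E7.75 replicate 2, which holds most of these UMIs, it is at least 109-fold higher against the same floor. *1100001G20Rik* had 0 and 173 UMIs, at least 73.1-fold higher (58.8 at the counting limit, and 56.1 against the floor without E7.75 replicate 2). *2700086A05Rik* had 2 and 2508 UMIs, a ratio of 1590 with a counting interval of 440 to 13137, and without E7.75 replicate 2 it had 785 late UMIs, a ratio of 777.

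Stage and experiment overlap in these embryos. The early embryos come from experiments 6, 7 and 8 and the late ones from 4, 5 and 7, and with the experiment as a covariate 1 gene passed, *Gm6166*, whose levels split the early embryos as given above. Every other gene that had passed lost its call, among them the other 30 named genes of the tallies given here. *Cyp26a1*, *Nodal*, *Foxh1* and *Wnt5a* are not part of these tallies. Within experiment 7, which holds 1 early, 3 middle and 2 late embryos, 969 of the 986 genes (98.3%) lay on the same side of the E6.5 embryo in both late embryos, where 61.6% of all genes tested did. All 3 embryos belong to the fit that made the calls, which by itself favours this, so nothing is read from it. The count was 38 without E7.75 replicate 2, 253 without late E7.5 replicate 2 and 1794 without E6.5, and without one of the other early embryos it was between 453 and 621. Without E7.75 replicate 2, *Aldh1a2* (9.20, adjusted p = 0.0469), *Osr1*, *Cer1*, *Snai1* and *Gata4* still passed, 5 of the 30 called and named genes that could be fitted, and *Tdgf1*, *Eomes*, *Meox1* and the Hox genes did not. Among the genes named, *Gm14226* lost its call in 7 of 12 refits that left out an embryo, *1100001G20Rik* in 4 of 9, *Msgn1* in 3 (without E6.0 replicate 1 or 2 or E7.75 replicate 2), *Pmepa1* and *Gm12366* in 3 (without either late E7.5 embryo or E7.75 replicate 2) and *Fgf5* and *Gm6166* in 2 (without late E7.5 replicate 2 or E7.75 replicate 2). With 5 *Mesp1* UMIs as the limit, *2700086A05Rik*, *Dll1*, *Gm14226* and *Pmepa1* lost theirs. Groups did not overlap for 1441 of 12409 genes (11.6%), among them 642 of the 986.

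**Figure D5:**
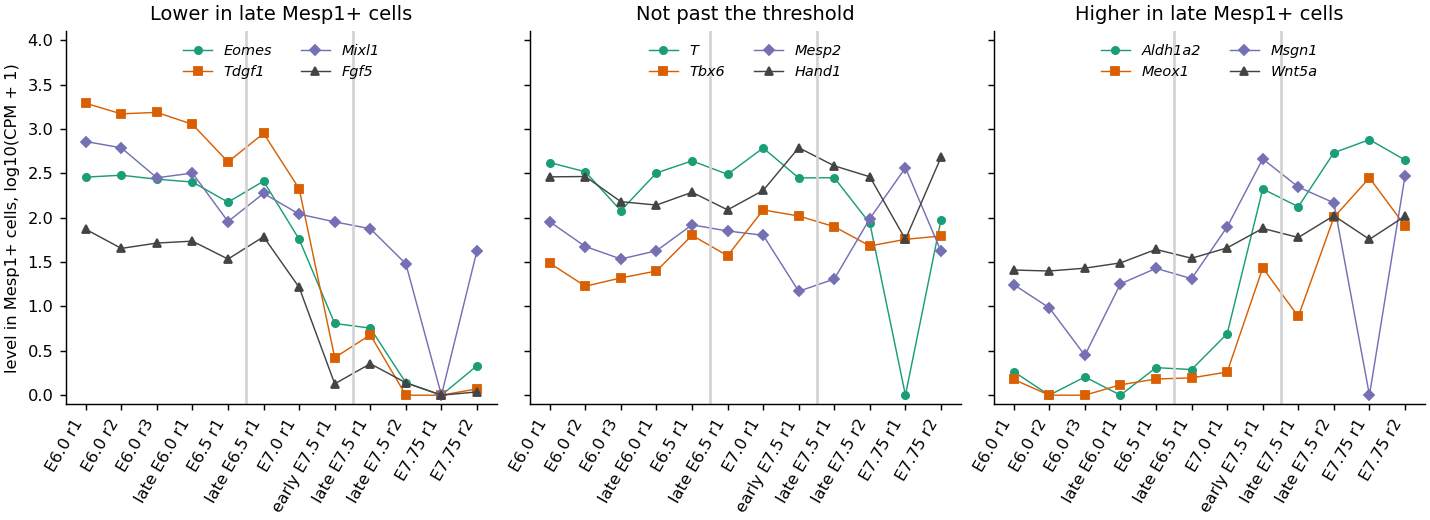
Levels in Mesp1+ cells of each control embryo in order of age, as log10(CPM + 1), for *Eomes*, *Tdgf1*, *Mixl1* and *Fgf5* (left, lower late), *T*, *Tbx6*, *Mesp2* and *Hand1* (middle, not past the threshold) and *Aldh1a2*, *Meox1*, *Msgn1* and *Wnt5a* (right, higher late), with a colour per gene; vertical lines divide early, middle and late embryos. *Eomes* and *Tdgf1* are at or below 5.42 CPM from early E7.5 on, and *Aldh1a2* lies between 132 and 756 CPM in the late embryos.

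Middle and early Mesp1+ cells differed in 2 of 12409 genes (0.0161%). These were the processed pseudogene *Gm11878* (4.19 ± 0.51) and the predicted gene *Gm10116* (3.56 ± 0.42), both higher in the middle embryos. At an unadjusted p below 0.05 there were 1589 genes, and DESeq2 called 29. Middle and early groups did not overlap for 6.99% of the 12409 genes, both of those called among them. *Gm11878* was 1.19 to 4.01 CPM in early and 11.6 to 54.9 CPM in middle Mesp1+ cells, and the 0-Mesp1 cells moved with it, at 0.945 to 4.29 and 11.8 to 56.8 CPM, so both sets of cells differed between the stages. *Tdgf1* (−1.83, adjusted p = 0.548), *Eomes* (−1.25, 0.556), *Tbx6* (1.41, 0.276) and *Aldh1a2* (6.51, 0.26) did not pass in this comparison. Without E6.5 the count was 750 and without E6.0 replicate 1 it was 0. With the experiment as a covariate neither *Gm11878* nor *Gm10116* passed, and the 1 gene that did was lower in the middle embryos.

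Whether the difference between Mesp1+ and 0-Mesp1 cells changed from early to late embryos was tested directly, with 607 of 13060 genes past the threshold (4.65%, 2.17% higher and 2.48% lower late). In cardiac genes the difference fell in 8 of 11 and rose in 0, in paraxial genes it fell in 7 of 13 and in streak genes in 6 of 15, with medians of −3.14, −2.39 and −1.01 against −0.02 over all genes. *Myl7* changed by −5.27, *Wnt2* by −4.80, *Lefty2* by −4.80 and *Tbx6* by −4.22. *Tbx6* stood at 15.9 to 62.3 CPM in early Mesp1+ cells against 0.512 to 1.43 CPM in 0-Mesp1 cells, and at 47.0 to 78.1 against 15.4 to 37.7 CPM in the late embryos. The early and late ranges do not overlap in 0-Mesp1 cells and do in Mesp1+ cells. *Cer1*, a Nodal inhibitor, changed by 4.72 the other way, with 39.1 to 179 CPM in early and 3.92 to 53.4 CPM in late 0-Mesp1 cells and 1.82 to 6.21 and 15.9 to 35.2 CPM in Mesp1+ cells. *Myl7* was 48.9 to 288 CPM in early and 0 to 84.0 CPM in late Mesp1+ cells, and 3.31 to 21.5 and 53.4 to 577 CPM in 0-Mesp1 cells. Groups did not overlap for 1348 genes (10.3%), among them 383 of the 607. The count was 125 without E7.75 replicate 2, 312 without late E7.5 replicate 2, 361 to 401 without E6.0 replicate 1, E6.0 replicate 2 or late E6.0, and 1030 without early E7.5. Of the genes named, *Myl7*, *Wnt2* and *Tbx6* passed in all 12 refits that left out an embryo, *Lefty2* lost its call in 3 (without late E6.0, late E7.5 replicate 2 or E7.75 replicate 2) and *Cer1* in 2 (without late E7.5 replicate 2 or E7.75 replicate 2).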

How the data were processed

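Whole embryos were dissociated, and each library was made with 10x Genomics 5′ version 1 chemistry. The authors deposited 1 matrix per library of unnormalized UMI counts per gene and cell, made per the labels with Cell Ranger 3.0.2 against mm10 with the eGFP and Ai14 transcripts added. No correction for free RNA is stated for these counts. Members, gene lists and comparisons were chosen with earlier results of these data known. The 15 libraries are 12 controls and 3 *Mesp1* KO embryos, and the KO embryos entered no comparison.

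Cells were filtered as stated in the report. Counts were summed per embryo and cell set, with at least 10 cells per set, and tested with edgeR 4.0.16 (R 4.3.3; filterByExpr, TMM, quasi-likelihood F test, Benjamini-Hochberg adjustment over all genes tested, threshold 0.05). Sets from the same animal were paired by an embryo block. Stage contrasts took the embryo as the unit. *Mesp1*, and *T* or Ai14 where they chose cells, were left out of the calls. Each embryo is an animal of its own, and no label gives littermates. CPM divides by all UMIs of the set and is not scaled by gene length. It is read between samples of a gene, except where markers of a list are summed.

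Alternatives were DESeq2 1.42.0, no filter on low counts, no block, leaving out each embryo, 6300 genes as the upper limit, *Mesp1* limits of 2 and 5 UMIs, cells matched on UMIs, other *T* and Ai14 limits, the experiment as a covariate and removal of the cells with the highest Scrublet scores (scanpy 1.11.5; 0.8% per 1000 barcodes). Alternatives without upper limits and without Mesp1+ cells holding 10 or more UMIs of other cell types were chosen after seeing the data. Reporter shares were compared by exact sign-flip permutation over embryos, also after thinning each cell to 3000 UMIs with seed 1. Shallower cells were left out of the thinned values and of all shares of cells with *Eomes*, *Tbx6* or *Hand1*. Genes were named when a sentence on their list needed them, or as the 10 with the largest change per direction among those past the threshold, moving one way in every embryo and reaching a mean of 20 CPM in the higher set. Stage contrasts required groups without overlap in place of one direction. The few genes that passed between middle and early embryos were named after their values were seen. Intervals are exact 95% Clopper-Pearson intervals and cover counting error only.

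On simulated counts with known changes, the edgeR step recovered 94.9% of genes changed 2-fold for Mesp1+ against 0-Mesp1 cells, run on 12891 genes. It recovered 27.6% of those changed 2-fold and 87.9% of those changed 4-fold for late against early Mesp1+ cells, run on 12095 genes. Positions are from GENCODE M21 and promoter sequences from RefSeq (GRCm38.p6). All 194 listed genes were found in the annotation.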

Additional observations from a re-analysis of the deposited data

Results flagged for a closer look

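*Lefty2* in the Mesp1+ cells of late E7.5 replicate 1, at 33.9 CPM, stood apart from the other 3 late embryos, which lay between 0 and 1.89 CPM. It was the only value among 23 groups tested for a sample far from the others, and chance alone can give such a value in that many groups. In E7.75 replicate 1, 3 UMIs are 41.98 CPM, so its 0 cannot show a level below 33.9 CPM.

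The difference between Mesp1+ and 0-Mesp1 cells itself differed between late and early embryos for 20 named genes, by an interaction term in edgeR (adjusted p from 0.000785 to 0.042, 12 embryos). The log2 difference was higher in late embryos for the Nodal inhibitor *Cer1* (4.72), *Cited1* (4.17), *Elf5* (3.56), *Smoc1* (3.24), *Apoc2* (3.10), *S100a6* (3.02), *Uchl1* (2.97), *Rhox5* (2.68), *Syt11* (2.66) and the imprinted RNA *H19* (2.57). *Elf5* and *Rhox5* mark extra-embryonic ectoderm and *Apoc2* visceral endoderm. *Elf5* was 0 to 1.89 CPM in late Mesp1+ cells against 0.16 to 9.20 CPM in late 0-Mesp1 cells, and *Rhox5* was 0 to 33.7 against 24.2 to 170 CPM.

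It was lower in late embryos for the contractile genes *Myl7* (−5.27), *Actc1* (−4.38), *Acta2* (−4.17) and *Myl4* (−3.27), for *Wnt2* (−4.80), *Lefty2* (−4.80), *Tbx6* (−4.22) and *Pmp22* (−3.90), and for the posterior genes *Hoxb1* (−3.75) and *Cdx1* (−3.31). A lower difference can come from either set of cells. In Mesp1+ cells, *Acta2* had 84 of 26840292 UMIs at E6.5, its highest early share. It had 208 of 17450933 and 69 of 2638943 in late E7.5 replicates 1 and 2. The E7.75 embryos held 0 of 71465 and 228 of 11302543, so *Acta2* did not fall there except for that 0. *Hoxb1* rose from 6.64 to 49.1 CPM in early Mesp1+ cells to 135 to 234 CPM in late ones, and *Cdx1* from 3.02 to 19.1 to 77.2 to 253 CPM.

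Among these 20 genes, calls were lost when 1 embryo was left out for *Apoc2* (7 of 12 embryos), *Myl4* (6), *Actc1* (4), *Lefty2* (3), *Cer1*, *Rhox5* and *Syt11* (2 each), and *Acta2*, *Elf5* and *Uchl1* (1 each). Without E7.75 replicate 2, 9 of the 20 lost their call and without late E7.5 replicate 2, 7 did. Under other settings, *Apoc2*, *Elf5* and *Rhox5* lost theirs without cells of high doublet scores, *Apoc2* with at most 6300 genes per cell and *Elf5* without upper limits on UMIs and genes.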

How the results depend on the processing

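Most counts of calls held within 1.5 times under most settings, and those that did not are given here. Counts were made with edgeR unless another tool is named. The sets of cells of an embryo are paired by that animal. With stage in place of the embryo block, 4472 genes passed for Mesp1+ against 0-Mesp1 cells, 1281 against streak cells, 1141 against Ai14-positive cells and 0 between Mesp1+ cells of high and low *Mesp1* count, where 384 had an unadjusted p below 0.05. Without a filter on low counts 5446 genes passed against streak cells, 3693 against Ai14-positive cells, 646 between high and low, 4 between middle and early and 1199 for the stage difference. With the experiment as a covariate 1 gene passed for late against early and 1 for middle against early Mesp1+ cells, and *Dll1* turned from 1.98 to −0.076 for late against early. With 5 *Mesp1* UMIs as the limit, 538 passed for late against early. Matched on UMIs, 88 passed between high and low, and without upper limits 300. The early median share of Mesp1+ cells was then 24.1%. DESeq2 called 29 genes between middle and early. Thinning left an eGFP difference of 1.09 points. *Cdx2* turned to −0.81 without Mesp1+ cells holding 10 or more UMIs of other-cell markers, a limit that counts *Cdx2* itself and so removes the cells high in it. *Bmp4*, near the threshold for Mesp1+ against 0-Mesp1 cells, lost its call under 6 of 10 settings other than leaving out an embryo, and *Gsc* against streak cells under 5 of 9. The cause of these changes was not tested.

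Leaving out each embryo in turn gave 6377 to 7741 genes for Mesp1+ against 0-Mesp1 cells, 2340 to 3739 against streak cells, 1544 to 2775 against Ai14-positive cells, 56 to 360 between high and low, 38 to 1794 for late against early, 0 to 750 for middle against early and 125 to 1030 for the stage difference. For late against early, single early embryos other than E6.5 gave 461 (E6.0 replicate 1), 453 (E6.0 replicate 2), 621 (E6.0 replicate 3) and 475 (late E6.0). For middle against early, 5 genes passed without late E6.5 and 5 without E7.0. The stage difference had 381, 361 and 401 without E6.0 replicate 1, E6.0 replicate 2 and late E6.0. Late values rest on 12 Mesp1+ cells in E7.75 replicate 1 and 104 in late E7.5 replicate 2.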

Other observations

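*Cyp26a1*, which breaks down retinoic acid, fell from early to late Mesp1+ cells in edgeR. It was 153 to 301 CPM early and 0 to 29.9 CPM late (log2 fold change −3.17 ± 0.55, adjusted p = 0.0116). With the experiment as a covariate only *Gm6166* passed, so the call of *Cyp26a1* was lost. Its call was not followed in the refits that left out an embryo. The clock gene *Hes7* was 0, 0.454, 0, 0.925 and 32.7 CPM in early Mesp1+ cells, 3.30, 50.2 and 52.0 CPM in the middle and 36.4, 77.7, 126 and 55.3 CPM in the late ones, and did not pass (2.71 ± 1.09, adjusted p = 0.141). Embryonic haemoglobin *Hba-x* was 1.38, 131, 0 and 5.49 CPM in late Mesp1+ cells and 2.79, 2842, 412 and 313 CPM in the 0-Mesp1 cells of the same embryos.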
